A study of Mus musculus with 5 samples.

Results

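The regions described here were secondary peaks of 2 to 8 kb. In a table of 85275 peaks from mouse heart muscle cells, a peak belonged to the set when it spanned at least 2000 and under 8000 bp and was not the widest peak that the table assigns to its gene symbol. The rule used width and gene symbol alone, and 1471 peaks at 1096 genes met it. Chromatin enriched for lysine 4 of histone H3 (H3K4) had been recovered by CUT&RUN, in which an antibody tethers a nuclease that cuts out nearby DNA. Cardiomyocytes, the contracting cells of heart muscle, came from mice at postnatal day 1 and had been treated for 72 h either with a control short hairpin RNA (Control-ShRNA-IL, 2 H3K4 libraries) or with one against Kdm5b (Kdm5b-ShRNA-IL, 2 H3K4 libraries). A single negative control library came from cells treated with Control-ShRNA-IL. The labels do not say that libraries of the same group came from separate animals or cultures. The p-values below therefore measure only how far these libraries differ, which may be a technical spread. For single peaks and pairs that spread was taken from peaks of similar level, and not from the peak's own libraries. Which methylation state the antibody recognised, and which antibody served in the negative control, was not given in the sources used here. A cell type label carries a different postnatal number (P1 to P5) for each of the 5 samples, whereas the isolation protocol gives day 1 for all, and if the label were the age, age and knockdown could not be told apart. The libraries report chromatin and not messenger RNA, so the depth of the Kdm5b knockdown was not checked here.

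Methylation of H3K4 marks the chromatin of active genes. Its trimethylated form is concentrated at promoters, where transcription starts, and its monomethylated form is concentrated at enhancers, which act on a promoter from a distance. Kdm5b encodes a demethylase of the Jumonji family that removes methyl groups from trimethylated and dimethylated H3K4. A gene with more than 1 promoter can start its transcript at different places, and such a gene would be able to show a second broad H3K4 peak beside its main one. Secondary peaks are therefore candidates for alternative promoters and for enhancers. The deposited table does not say which of its peaks lie at a promoter, an exon or an intron.

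Of the 1096 genes, 841 had at least 1 entry in a RefSeq table of promoter windows that run from 250 bases before to 50 bases after an annotated start (build GRCm38.p6). Peak positions were in build GRCm39 and were not placed against these windows. 3 genes are shown because the results below return to their secondary peaks and because RefSeq lists more than 1 start for each of them. Windows are written 5′ to 3′ on the strand of the gene, with every CG dinucleotide (CpG) in capitals. Across all 32851 windows in the table the median was 7 CpG and the quartiles were 3 and 20.

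Slc39a10, which encodes a zinc importer of the cell membrane, had a CpG-dense start with 47 CpG and a CpG-poor start with 1.
Slc39a10 start 1, chr1:46853569-46853868, minus strand: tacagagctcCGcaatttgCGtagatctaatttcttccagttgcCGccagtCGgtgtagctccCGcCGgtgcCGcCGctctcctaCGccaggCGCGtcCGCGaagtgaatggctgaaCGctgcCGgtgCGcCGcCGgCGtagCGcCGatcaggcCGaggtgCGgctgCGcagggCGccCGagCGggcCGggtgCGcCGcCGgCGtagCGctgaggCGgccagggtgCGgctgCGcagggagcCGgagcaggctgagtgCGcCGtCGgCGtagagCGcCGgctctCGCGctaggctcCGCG
Slc39a10 start 2, chr1:46925727-46926026, minus strand: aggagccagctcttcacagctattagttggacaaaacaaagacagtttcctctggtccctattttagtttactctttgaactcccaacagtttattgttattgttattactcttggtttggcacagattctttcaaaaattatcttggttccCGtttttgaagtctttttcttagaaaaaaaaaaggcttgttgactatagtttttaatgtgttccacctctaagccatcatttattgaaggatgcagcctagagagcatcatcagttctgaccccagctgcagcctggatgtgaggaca

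Ctnnd1 encodes p120 catenin, which holds cadherins at cell junctions. Its RefSeq starts differed in the same way, with 30 and 3 CpG.
Ctnnd1 start 1, chr2:84658928-84659227, minus strand: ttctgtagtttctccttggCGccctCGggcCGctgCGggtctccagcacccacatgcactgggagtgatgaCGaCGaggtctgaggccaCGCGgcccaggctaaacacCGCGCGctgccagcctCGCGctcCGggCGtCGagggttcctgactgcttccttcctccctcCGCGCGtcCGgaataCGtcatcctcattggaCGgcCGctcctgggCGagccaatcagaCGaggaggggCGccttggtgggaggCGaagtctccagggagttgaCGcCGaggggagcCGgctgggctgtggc
Ctnnd1 start 2, chr2:84650691-84650990, minus strand: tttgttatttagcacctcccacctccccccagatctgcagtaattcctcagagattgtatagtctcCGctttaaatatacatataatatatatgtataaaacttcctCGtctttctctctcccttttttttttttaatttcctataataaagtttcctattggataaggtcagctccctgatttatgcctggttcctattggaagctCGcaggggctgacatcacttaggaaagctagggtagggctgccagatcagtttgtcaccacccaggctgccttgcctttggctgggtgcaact

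Foxp1 encodes a forkhead transcription factor of heart development and had 3 RefSeq starts with 44, 13 and 5 CpG.
Foxp1 start 1, chr6:99028249-99028548, minus strand: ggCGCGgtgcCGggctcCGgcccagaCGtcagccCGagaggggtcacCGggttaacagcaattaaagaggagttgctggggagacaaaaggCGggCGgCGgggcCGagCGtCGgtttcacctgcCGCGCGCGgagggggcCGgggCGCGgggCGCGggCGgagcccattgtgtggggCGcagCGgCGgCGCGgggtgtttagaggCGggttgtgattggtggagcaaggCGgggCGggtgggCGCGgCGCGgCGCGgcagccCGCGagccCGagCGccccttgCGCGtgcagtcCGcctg
Foxp1 start 2, chr6:99520944-99521243, minus strand: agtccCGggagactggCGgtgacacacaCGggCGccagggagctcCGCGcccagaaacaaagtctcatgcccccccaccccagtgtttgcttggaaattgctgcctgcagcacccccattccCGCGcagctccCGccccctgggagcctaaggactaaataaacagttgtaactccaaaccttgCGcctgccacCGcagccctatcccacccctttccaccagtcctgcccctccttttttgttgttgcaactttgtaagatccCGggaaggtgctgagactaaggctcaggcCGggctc
Foxp1 start 3, chr6:99266466-99266765, minus strand: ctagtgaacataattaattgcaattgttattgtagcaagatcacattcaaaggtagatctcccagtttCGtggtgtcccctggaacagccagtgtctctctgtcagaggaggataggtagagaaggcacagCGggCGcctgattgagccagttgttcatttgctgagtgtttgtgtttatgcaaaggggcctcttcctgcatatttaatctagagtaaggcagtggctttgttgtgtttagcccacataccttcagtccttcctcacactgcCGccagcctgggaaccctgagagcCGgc

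The windows were searched on both strands for AGATAA (bound by GATA factors), CANNTG (the E-box), TGANTCA (AP-1), GGAATG (TEAD factors) and TATAAA (the TATA box). AGATAA was found in the CpG-poor start of Slc39a10, and 11.2% of all windows hold it. TATAAA was found in the CpG-poor start of Ctnnd1, and 13.6% of all windows hold it. GGAATG was found in the Foxp1 start with 13 CpG, and 14.7% of all windows hold it. CANNTG was found in all of these windows except the CpG-poor start of Ctnnd1, and 72.3% of all windows hold it. TGANTCA, which 7.81% of all windows hold, was in none of them. A match of letters does not show that a factor binds there.

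Secondary peaks were mostly single. Of the 1096 genes, 863 held 1, 151 held 2 and 82 held 3 or more. The largest number was 7, in Pakap, which encodes an anchor of protein kinase A joined to paralemmin, and in Tns1, which encodes tensin 1 of focal adhesions. Their median width was 2620 bp, and that of the widest peaks of the same genes was 4728.5 bp. The gap between a secondary peak and the widest peak of its gene had a median of 14592 bp. It was under 1 kb for 168 peaks, 1 to 10 kb for 461, 10 to 100 kb for 689 and 100 kb or more for 153. Other genes' broad peaks were seldom close, with 104 secondary peaks within 10 kb of a peak of at least 2 kb assigned to another gene and 4 within 1 kb. At 143 secondary peaks the gene symbol was a Gm, Rik, LOC, microRNA or clone name. All 1471 passed the filter of 1 CPM (a read count scaled to the library's total in peaks) in 2 or more H3K4 libraries. At the lower width limit, the 87 secondary peaks up to 50 bp inside it had a median of 9.89 CPM in control cells and the 95 up to 50 bp outside it had 8.65 CPM. At the upper limit, the 9 up to 1000 bp inside it had a median of 116 CPM and the 8 of at least 8000 bp, outside it, had 140 CPM.

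H3K4 signal was sparser in secondary peaks than in the widest peaks of the same genes, whereas the negative control was about equally dense in both. Per kilobase, the median secondary peak held 6.39 and 5.97 CPM in control cells, 5.54 and 5.27 CPM in knockdown cells, and 10.004 CPM in the negative control. Their widest peaks held 17.8 and 18.1 CPM per kb in control cells, 18.2 and 18.7 in knockdown cells, and 10.3 in the negative control. Gene by gene, the density of a secondary peak had a median of 0.383 times that of its widest peak over the 4 H3K4 libraries. On the log2 scale that difference in density had a median of -1.27 and -1.38 in control cells, -1.45 and -1.51 in knockdown cells and -0.051 in the negative control. The SD between libraries of 1 group was 0.077 in the control and 0.047 in the knockdown, far less than the distance of any H3K4 library from the negative control. The negative control had no replicate, so that distance has no test. The mean of this measure in knockdown cells was 0.15 lower than in control cells, with no overlap of the libraries, and a 2-sided exact permutation test gave p = 0.333, the smallest that 2 against 2 libraries can give.

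**Figure D1:**
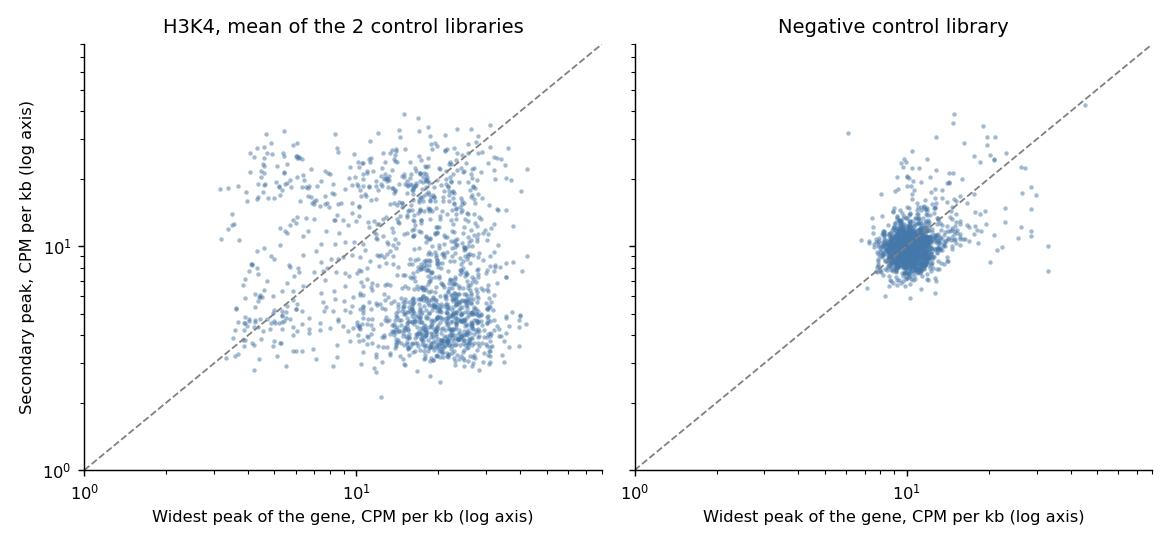
Each point is 1 of the 1471 secondary peaks, with the density of the widest peak of its gene on the horizontal axis and its own density on the vertical axis, both in CPM per kb on log axes and with a dashed line of equality. In the mean of the 2 control H3K4 libraries (left) most points lie below the line and a smaller group lies above it, whereas in the negative control library (right) most points sit near 10 CPM per kb on both axes.

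A minority was denser than the widest peak of its gene. Over the 4 H3K4 libraries 339 secondary peaks (23.0%) were denser, against 15.6% of all tested pairs of a peak and the widest peak of its gene. The most extreme were at St3gal2 (7.37 times), Nr6a1 (7.03 times), Manbal (6.81 times), Mrm1 (6.69 times), Il17rd (6.63 times) and Anxa3 (6.60 times). St3gal2 encodes a sialyltransferase, Nr6a1 an orphan nuclear receptor, Mrm1 a methyltransferase of mitochondrial ribosomal RNA, Il17rd an inhibitor of fibroblast growth factor signalling and Anxa3 an annexin. At St3gal2, on chromosome 8 at 111645700 to 111648995, the secondary peak held 93.5 and 97.6 CPM in control cells, 103 and 105 CPM in knockdown cells and 33.8 CPM in the negative control. The widest peak of St3gal2 held 25.3 and 18.5 CPM, then 15.7 and 12.8 CPM, and 42.0 CPM in the negative control. In each of the 4 H3K4 libraries the secondary peak of St3gal2 was above the negative control and the widest peak was below it. At the other end stood Vasp, which encodes an actin regulator, with a secondary peak at 0.0723 times the density of its widest peak, followed by Efna5 (0.0790 times), Zmiz1 (0.0856 times) and Ajuba (0.0864 times).

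Most secondary peaks lay below the negative control. The mean of the 4 H3K4 libraries over the negative control, with 1 CPM added to each, had a median of 0.588 in secondary peaks and 1.72 in the widest peaks of the same genes. Of the 1471, 1038 were below the negative control, and 542 (36.8%) were at least 2-fold below it, against 67.7% of all tested peaks. At least 2-fold above it were 110 (7.48%), against 6.2% of all tested peaks and 390 (35.6%) of the 1096 widest peaks. The name of candidate promoters and enhancers thus covers regions of which 433 had a higher CPM in H3K4 than in the negative control. Each library is scaled to its own total in these peaks, so the ratio compares shares of reads. A ratio under 1 does not show that H3K4 signal was absent. In that library 1 read was worth 0.264 CPM and no secondary peak had under 12.7 CPM.

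**Figure D2:**
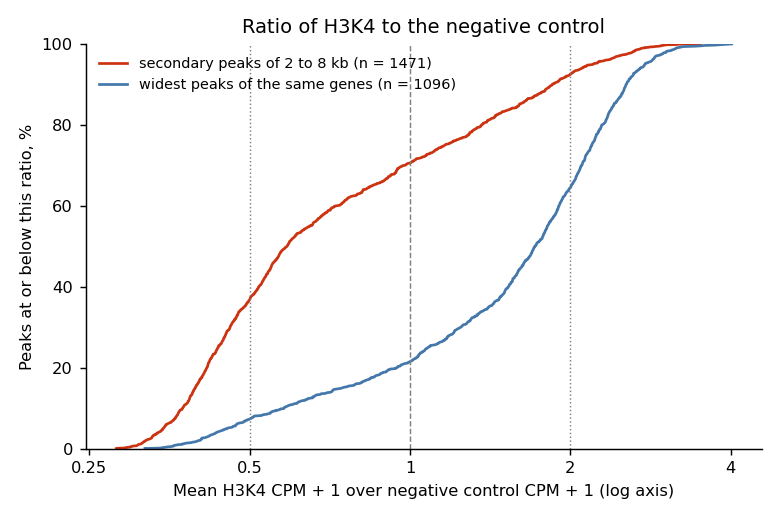
Cumulative share of peaks, in percent, by the ratio of mean H3K4 CPM + 1 to negative control CPM + 1 on a log axis, for the 1471 secondary peaks and the 1096 widest peaks of the same genes. Dotted lines mark 0.5 and 2 and a dashed line marks 1. The secondary peaks lie to the left, with a median ratio of 0.588 against 1.72.

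The highest ratio, 3.51, was at Prr14, which encodes a protein that ties heterochromatin to the nuclear lamina. Its secondary peak on chromosome 7 at 127068402 to 127072639 held 142 and 145 CPM in control cells, 157 and 160 CPM in knockdown cells and 42.3 CPM in the negative control. Csk, which encodes the kinase that silences Src, followed with 3.19. Its secondary peak held 84.8 and 91.4 CPM in control cells, 85.1 and 91.4 CPM in knockdown cells and 27.0 CPM in the negative control, while its widest peak, at 15.9 to 21.8 CPM in the H3K4 libraries, lay below the negative control at 42.5 CPM. Rnf114, Mapre2, Svil and Cpeb3 had ratios of 3.17, 3.02, 3.01 and 2.98. The lowest ratios were at Col1a1 (0.281), which encodes a chain of type I collagen, the antisense locus Fgf2os (0.282), Nav2 (0.293) and Clic4 (0.293). At Col1a1 the secondary peak held 7.61 to 8.47 CPM in the H3K4 libraries and 30.9 CPM in the negative control.

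Level went together with distance from the widest peak, and with density partly by definition, since density is level divided by width. Split by the mean of the 4 H3K4 libraries, 369 secondary peaks had under 10 CPM, 455 had 10 to 20, 286 had 20 to 40, 253 had 40 to 80 and 108 had 80 CPM or more. Among those under 10 CPM, 4.34% were denser than the widest peak of their gene, and among those of 80 CPM or more 84.3% were. The median gap to the widest peak was 9834 bp in the first of these classes and 36814 bp in the last. Secondary peaks under 1 kb from the widest peak had a median of 15.1 CPM in control cells and those 100 kb or more away had 35.1 CPM. For 858 secondary peaks the widest peak of the gene was above the negative control and the secondary peak below it. In 307 pairs both were above, in 180 both were below, and in 126 the secondary peak was above and the widest below.

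Among the 5 genes with the most secondary peaks, 3 held at least 1 above the negative control and 2 held none. Foxp1 had 6 on chromosome 6, and the outermost, at 99495630 to 99501688 and 488699 bp from the widest peak, held 170 and 177 CPM in control cells, 189 and 190 CPM in knockdown cells and 63.9 CPM in the negative control. That peak was 1.15 times as dense as the widest peak of Foxp1, and the other 5 ranged from 0.144 to 0.496 times. The higher level of the outermost peak in knockdown cells was not called in the comparison below (adjusted p = 0.099, limma). Another Foxp1 peak, at 99069582 to 99074300, was at 58.9 to 63.4 CPM in the H3K4 libraries against 47.3 CPM in the negative control, and the remaining 4 were below the negative control. Tns1 had 1 peak of its 7 at 125 to 136 CPM in the H3K4 libraries with 49.1 CPM in the negative control, and the other 6 were below the negative control. Shb, which encodes an adaptor of receptor tyrosine kinases, had 6 that were all below it, at 0.343 to 0.550 times. Fndc3b, which encodes a membrane protein with fibronectin repeats, also had 6 below it, at 0.369 to 0.563 times. Pakap had 1 above, at 157 to 172 CPM against 76.1 CPM, and 6 below.

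**Figure D3:**
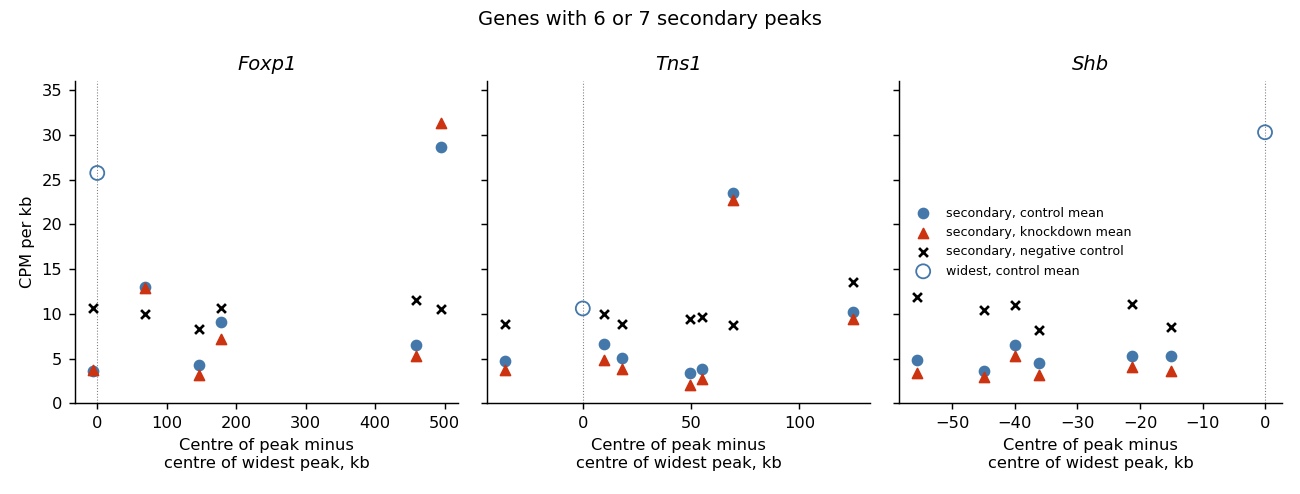
Density in CPM per kb (vertical axis) of each secondary peak of Foxp1, Tns1 and Shb against the distance of its centre from the centre of the widest peak of the gene in kb (horizontal axis). Filled circles are the mean of the 2 control libraries, triangles the mean of the 2 knockdown libraries, crosses the negative control and open circles the widest peak in control cells. Most secondary peaks lie under their crosses, and 1 peak of Foxp1 and 1 of Tns1 stand far above them.

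The knockdown was then compared with the control. Fold changes are on the log2(CPM + 1) scale and calls come from limma (linear model, intensity trend), fitted on all 58072 tested peaks with Benjamini-Hochberg adjustment and a threshold of 0.05. With the authors' CPM, 24 secondary peaks rose (1.63%) and 174 fell (11.8%), against 1.33% and 1.63% of all tested peaks. These shares are not matched for level, as the median in control cells was 17.9 CPM in secondary peaks and 2.31 CPM in all tested peaks. At 10 to 20 CPM 16.9% of secondary peaks and 7.85% of all tested peaks fell. At 20 to 40 CPM 12.9% and 4.95% fell. The 9938 widest peaks of 2 to 8 kb of any gene went the other way, with 629 higher (6.33%) and 264 lower (2.66%). The median fold change was -0.13 in secondary peaks, -0.14 in all tested peaks and 0.026 in the widest peaks of the member genes. Both knockdown libraries were above both control libraries at 224 secondary peaks (15.2%) and below both at 678 (46.1%), against 12.1% and 35.4% of all tested peaks. The counts of calls rest on the scaling. With TMM scaling, which moved the median of all tested peaks by 0.079 on the log2 scale, 2 rose and 5 fell. With median centring, which moved it by 0.24, 1 rose, 0 fell and 121 had an unadjusted p under 0.05, and the median of secondary peaks became 0.11, or 0.010 above that of all tested peaks. DESeq2 on the recovered reads, with its own size factors, called 1 higher and 0 lower, with 161 at an unadjusted p under 0.05, whereas edgeR's quasi-likelihood test with library totals called 21 and 132. Limma without its trend called 0 in either direction, with 184 at an unadjusted p under 0.05. Knockdown library 4 had the greatest weight, since without it 3 rose and 21 fell. Without control library 3 the counts were 11 and 37, without control library 4 they were 14 and 132, and without knockdown library 3 they were 14 and 146.

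Secondary peaks that fell lay mostly below the negative control, and those that rose lay mostly above it. Of the 174 that fell, 166 (95.4%) were below the negative control, against 844 of 947 (89.1%) over all tested peaks. Called or not, 70.6% of all secondary peaks and 82.7% of all tested peaks were below it. Over the whole table, falls were thus below it little more often than peaks in general. Of the 24 that rose, 20 (83.3%) were above it, against 647 of 773 (83.7%). Among the 542 at least 2-fold below the negative control, 103 fell (19.0%) and 1 rose, with a median of -0.27. Over all tested peaks in that class 1.47% fell and the median was -0.23, but their median level in control cells was 1.77 CPM, against 10.1 CPM in the secondary peaks. Among the 110 at least 2-fold above it, 0 fell and 11 rose, with a median of 0.071, close to all tested peaks in that class, of which 8.77% rose and 0.333% fell with a median of 0.080. Secondary peaks below the negative control took 1.76% and 1.66% of all reads in peaks in control cells, and 1.54% and 1.45% in knockdown cells. Those above it took 2.69% and 2.71%, then 2.73% and 2.84%. All secondary peaks together took 4.45% and 4.37% of reads in control cells, 4.28% and 4.29% in knockdown cells and 4.59% in the negative control. For each of these shares the groups did not overlap, and the same exact permutation test gave p = 0.333.

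With the authors' CPM, secondary peaks fell more often at matched level than widest peaks of 2 to 8 kb, and with TMM scaling 5 falls remained in all. The share that fell was 13.6%, 16.9% and 12.9% in the classes under 10, 10 to 20 and 20 to 40 CPM, against 5.85%, 11.6% and 5.06% of the widest peaks in the same classes. In the classes of 40 to 80 and 80 CPM or more it was 2.77% and 2.78%, against 1.64% and 1.18%. The share that rose was 9.26% against 9.84% in the highest class, and 0.440% against 3.03% at 10 to 20 CPM. The difference between secondary and widest peaks was not tested over classes, and within a class they differ in width and in the genes they belong to. They can also differ in position against the negative control. Below it lay 64.0% of secondary and 44.4% of widest peaks at 20 to 40 CPM, and 99.1% and 97.2% at 10 to 20 CPM. Peaks that fell were also more frequent near the widest peak, at 18.5% of those under 1 kb away, 14.8% at 1 to 10 kb, 9.58% at 10 to 100 kb and 5.88% at 100 kb or more, and the median ratio to the negative control over the same classes went from 0.498 in the nearest to 0.942 in the farthest.

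**Figure D4:**
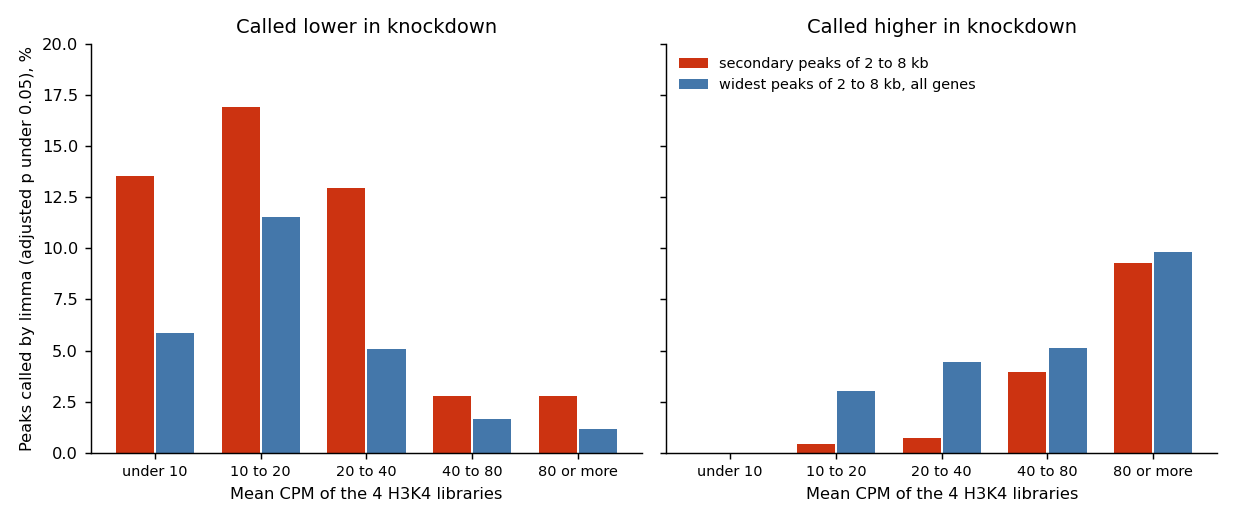
Share of peaks, in percent, that limma called lower (left) or higher (right) in knockdown with the authors' CPM scaling, by the mean CPM of the 4 H3K4 libraries, for secondary peaks and for the widest peaks of 2 to 8 kb of all genes. Lower calls of secondary peaks reach 16.9% at 10 to 20 CPM and higher calls reach 9.26% at 80 CPM or more; with TMM scaling only 5 lower and 2 higher calls remained in all classes together.

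Slc39a10 had the largest rise. Its secondary peak, on chromosome 1 at 46924061 to 46927998, held 15.5 and 14.1 CPM in control cells, 25.7 and 23.0 CPM in knockdown cells and 49.1 CPM in the negative control. These positions are in build GRCm39 and cannot be compared by number with the promoter windows above, which are in GRCm38.p6. Both knockdown libraries were above both control libraries and all 4 were below the negative control. The rise was 0.68 on the log2 scale (SE 0.11, adjusted p = 5.1e-07, limma). The widest peak of Slc39a10, 29786 bp away, stayed at 70.4 to 71.8 CPM in the 4 libraries. The rise was called with TMM scaling, median centring, edgeR, DESeq2 and with each library left out, and not by limma without its trend. Pdlim2, which encodes a PDZ and LIM domain protein, held 13.7 and 13.1 CPM in control and 19.2 and 19.96 CPM in knockdown cells, with 33.8 CPM in the negative control. Its log2 fold change was 0.52 (SE 0.11, adjusted p = 0.0014, limma), and the call held with TMM scaling but not with median centring.

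The other 8 named rises were of 0.26 to 0.40 on the log2 scale, and 6 of them lay above the negative control by the mean of the H3K4 libraries. Ctnnd1 held 148 and 145 CPM in control cells, 178 and 185 CPM in knockdown cells and 66.1 CPM in the negative control, in a secondary peak of 6224 bp on chromosome 2 at 84475995 to 84482219. The groups did not overlap and all 4 libraries were more than 2-fold above the negative control. Its log2 fold change was 0.31 (SE 0.05, adjusted p = 3.8e-07, limma), and the call was lost with TMM scaling and with median centring. Tor1aip2, which encodes a partner of torsin ATPases, rose by 0.34 on the log2 scale from 89.5 and 81.3 CPM to 110 and 106 CPM. Akirin2, needed for the import of proteasomes into the nucleus, rose by 0.26 from 98.1 and 103 CPM to 118 and 123 CPM. The others above it were at Prickle2 of planar cell polarity (0.34), the chromatin remodeller Chd9 (0.33) and Srebf1, a regulator of lipid synthesis with alternative first exons (0.31). Gcnt2, a branching enzyme of glycans (0.40), and Ripor1 (0.29) lay below it, at 0.986 and 0.919 times.

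The 10 largest falls were all below the negative control in every H3K4 library. Csnk1e, which encodes a casein kinase of the circadian clock, held 14.5 and 11.5 CPM in control cells, 7.89 and 6.50 CPM in knockdown cells and 33.6 CPM in the negative control. Its secondary peak lay on chromosome 15 at 79319056 to 79321770, 183 bp from the widest peak. On the log2 scale it changed by -0.77 (SE 0.14, adjusted p = 3.8e-05, limma). Among the rest, Abcc1, an exporter of drug conjugates, fell by 0.73, and Ago2, the slicing Argonaute of RNA silencing, by 0.72. The others reported here were Pdzrn3 (-0.68), the heart-enriched LIM protein gene Fhl2 (-0.67), the corepressor gene Tle5 (-0.66), Tmbim6 of the endoplasmic reticulum (-0.66), Tns1 (-0.65) and Ubtd1 (-0.65). With TMM scaling the falls at Csnk1e, Abcc1, Ago2 and Fhl2 were still called, and with median centring none of the 9 falls named here was. Of all 174 that fell, 24 fell by more than 1.5-fold on this scale, and the median was -0.49.

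**Figure D5:**
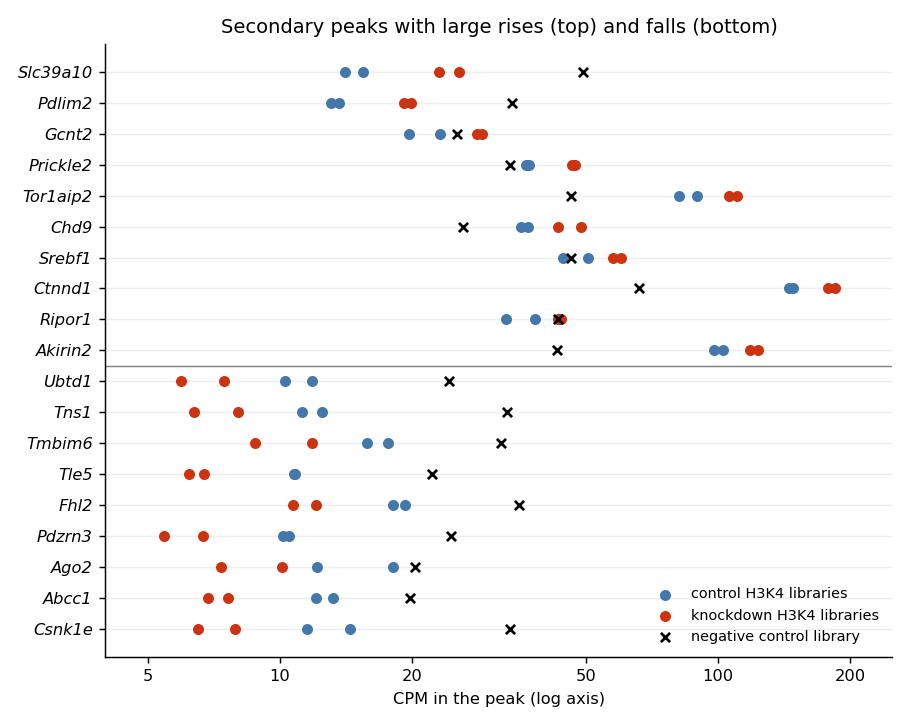
CPM on a log axis in each library for the secondary peaks with the 10 largest rises (above the line) and for 9 of the 10 largest falls (below it), ordered by log2 fold change. Blue points are the 2 control libraries, red points the 2 knockdown libraries and crosses the negative control. The groups do not overlap at any peak shown, since the naming rule asked for that. All H3K4 points lie left of the cross at the 9 falls shown and at Slc39a10 and Pdlim2, and right of it at Prickle2, Tor1aip2, Chd9, Ctnnd1 and Akirin2.

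A secondary peak can also be compared with the widest peak of its own gene within each library, which cancels any factor that scales a whole library. This difference was tested with limma over 35762 pairs, and 41 secondary peaks rose relative to the widest peak (2.79%) and 64 fell (4.35%), against 0.145% and 0.38% of all pairs tested. These shares are not matched for level, as the median in control cells was 17.9 CPM in secondary peaks and 2.31 CPM in all tested peaks. Among secondary peaks under 10 CPM, 0% of pairs rose and 2.17% fell, and at 80 CPM or more 17.6% rose and 0.926% fell. TMM scaling, which moves both peaks of a pair alike, gave the same counts, and quantile normalization, which does not, gave 33 higher and 27 lower. Without knockdown library 4 they were 4 and 5, without control library 3 they were 21 and 13, without control library 4 they were 36 and 36, and without knockdown library 3 they were 42 and 150. Limma without its trend called 0 in either direction. The median difference was -0.15 over the secondary peaks and -0.21 over all pairs. Of the 41, 38 were denser than the widest peak, and of the 64, 5 were. In 28 of the 41 it was the widest peak itself that fell, and in 12 the secondary peak itself rose. In 48 of the 64 the secondary peak itself fell, and in 21 the widest peak itself rose. The peak that lost ground was thus in most pairs the sparser of the 2.

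Eif3h, which encodes a subunit of translation initiation factor 3, had the largest relative rise. Its secondary peak held 48.5 and 53.6 CPM in control and 56.8 and 59.1 CPM in knockdown cells. Its widest peak held 18.1 and 16.3 CPM and then 11.4 and 12.0 CPM, below the 25.6 CPM of the negative control. The difference of the log2 fold changes was 0.70 (SE 0.14, adjusted p = 0.0011, limma). Slc27a1, a fatty acid transporter gene, had 0.70 and St3gal2 had 0.69, and in both the widest peak fell while the secondary peak was not called. Ctnnd1 had 0.50 (adjusted p = 5.7e-08, limma), with a widest peak that went from 84.3 and 84.0 CPM to 74.9 and 72.4 CPM without passing the threshold.

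Tmbim6 had the largest relative fall. Its secondary peak held 15.8 and 17.6 CPM in control and 11.8 and 8.75 CPM in knockdown cells, and its widest peak, 887 bp away, held 104 CPM in both control and 116 CPM in both knockdown libraries. The difference was -0.82 (SE 0.15, adjusted p = 6.1e-05, limma). Tle5 (-0.78), Rcsd1 (-0.77) and Ago2 (-0.75) were also among the 5 largest. At each of these 4 genes the widest peak was above the negative control and was not itself called.

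Secondary peaks of cardiac regulators lay about as far below the negative control as secondary peaks in general, with a median ratio of 0.559 against 0.588. In the gene lists that follow, rose, fell and a call refer to the secondary peak itself with the authors' CPM unless the pair or the widest peak is named, and with TMM scaling the fall at Fhl2 was the only call of a secondary peak kept. The list of cardiac transcription factors had 21 secondary peaks at 13 of its 34 genes in the table, of which 0 rose and 4 fell, with a median of -0.20, against 11.8% that fell among all secondary peaks. The 4 were at Foxp1, Mef2c, Myocd and Ppargc1a. The Ppargc1a peak is described with the alternative promoters below and is counted again there and among metabolic regulators. 5 of the 21 were above the negative control, and 433 of all 1471 were. Mef2c, a driver of heart muscle genes, had 3 on chromosome 13, which held 22.3 to 27.3, 7.40 to 12.3 and 20.7 to 29.98 CPM in the H3K4 libraries. The farthest, at 83720041 to 83723812, went from 29.98 and 26.8 CPM to 24.7 and 20.7 CPM with 38.8 CPM in the negative control (log2 fold change -0.31, adjusted p = 0.041, limma), while the widest peak rose from 140 and 149 CPM to 170 and 171 CPM. That pair differed by -0.55 (adjusted p = 0.0015, limma). Myocd, a coactivator of smooth and heart muscle genes, fell by 0.46 (adjusted p = 0.0016, limma) from 24.4 and 24.8 CPM to 19.7 and 15.7 CPM. The Foxp1 peak at 99179894 to 99183576 went from 32.3 and 34.3 CPM to 27.4 and 25.2 CPM, with 39.4 CPM in the negative control. Its log2 fold change was -0.33 (adjusted p = 0.017, limma). The secondary peak of Gata4 lay 36 bp from a widest peak of 25684 bp and held 22.9 and 20.8 CPM in control and 19.0 and 18.7 CPM in knockdown cells, with no call. Nkx25, as the table spells the homeobox gene of the early heart field, had a secondary peak at 68.8 to 81.2 CPM in the H3K4 libraries, against 157 CPM in the negative control, the highest negative control value of any secondary peak.

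Genes of contraction and calcium handling had median ratios to the negative control of 0.488 and 0.519, near the 0.588 of all secondary peaks. Of all secondary peaks 1.63% rose and 11.8% fell, with a median of -0.13. Sarcomere and Z-disc genes had 11 secondary peaks, of which 0 rose and 2 fell (Fhl2 and Myoz2), with a median of -0.20. Calcium handling and channel genes had 16, of which 0 rose and 3 fell, with a median of -0.23. The 3 were at Jph2, which encodes the junctophilin that couples the cell membrane to the calcium store, and at Kcnh2, a repolarising potassium channel, which had 2. The widest peak of Kcnh2 fell too, by 0.25 on the log2 scale (adjusted p = 0.0040, limma), and neither of its pairs was called. Jph2 went from 37.6 and 39.7 CPM to 30.6 and 27.6 CPM, with 66.3 CPM in the negative control, while its widest peak stayed at 295 to 304 CPM. Secondary peaks of Ryr2, the calcium release channel, held 6.63 to 14.7 CPM and those of Ttn, the giant spring protein of the sarcomere, held 32.9 to 36.4 CPM, and no secondary peak of either gene was called. The widest peak of Ryr2 fell by 0.20 on the log2 scale (adjusted p = 0.0060, limma).

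At genes known for alternative promoters the median fold change was near 0. The list had 32 secondary peaks at 18 of its 38 genes in the table, of which 13 were above the negative control, 0 rose and 1 fell, with a median of -0.0031. Of all secondary peaks 1.63% rose and 11.8% fell. Dst, which encodes the cytoskeletal linker dystonin, had 4, and the strongest held 113 CPM in both control libraries, 129 and 121 CPM in knockdown cells and 54.2 CPM in the negative control. It rose relative to its widest peak by 0.28 (adjusted p = 0.0059, limma), while neither peak was called alone. Mitf, the microphthalmia factor, had a secondary peak at 61.4 to 64.6 CPM against 48.1 CPM in the negative control and another at 9.56 to 14.1 CPM against 27.0 CPM. The 1 that fell was at Ppargc1a, a coactivator of mitochondrial genes, and went from 126 and 133 CPM to 110 and 113 CPM with 83.2 CPM in the negative control. Its log2 fold change was -0.21 (adjusted p = 0.0086, limma) and turned to 0.030 with median centring and 0.0068 with DESeq2, with no call. Dmd, the dystrophin gene, had its secondary peak farthest of all, 2093435 bp from the widest, at 32.9 to 39.0 CPM against 48.9 CPM in the negative control.

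The other lists gave few calls of secondary peaks, beside 1.63% higher and 11.8% lower among all secondary peaks. The list of chromatin regulators, which held histone deacetylases beside H3K4 and Polycomb genes, had 8 secondary peaks with 0 higher and 2 lower. Both falls were at histone deacetylase genes (Hdac5 and Hdac7), and not at genes of H3K4 methylation or Polycomb. Hdac5 also held a secondary peak at 93.4 to 110 CPM against 46.0 CPM in the negative control that was not called. Hippo, ErbB and IGF signalling genes had 16 with 0 called. Transforming growth factor, bone morphogenetic protein and fibroblast growth factor genes had 13 with 1 lower, at Ski. G1/S and replication genes had 4 with 1 lower, at Ccnd3. The 37 G2/M and mitosis genes in the table held no secondary peak, and neither did Hox genes nor developmental regulators of other lineages. Over the whole table only 1096 of 25017 gene symbols held one, and the difference was not tested. Metabolic regulators and enzymes had 8 with 1 lower, which was the same Ppargc1a peak, and Wnt and Notch genes had 7, genes of cell adhesion and the intercalated disc 12, fetal and stress-induced cardiac genes 3 and negative regulators of the cell cycle 4, with no secondary peak called. The pair test called 2.79% higher and 4.35% lower among all secondary peaks. In the lists it called 2 lower among cardiac transcription factors, both at Mef2c, and 1 lower in each of the sarcomere, calcium handling and G1/S lists. It called 1 higher in each of the calcium handling, alternative promoter, metabolic and Wnt and Notch lists. In the last of these it was at Ryk, a Wnt receptor, where the difference was 0.53 (adjusted p = 0.029, limma). The secondary peak of Ryk went from 82.0 and 81.2 CPM to 83.4 and 92.7 CPM with no call, and its widest peak fell from 18.8 and 17.9 CPM to 14.5 and 12.4 CPM.

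Markers of cell types in the heart were read at their widest peaks, with the authors' CPM, against 8.30% higher and 6.66% lower among the widest peaks of all 1096 genes with a secondary peak. Many markers held no secondary peak, and among the widest peaks of 2 to 8 kb of all genes 6.33% were higher and 2.66% lower. Cardiomyocyte markers had 0 higher and 6 lower of 18, and their summed signal was 2989 to 3001 CPM in control and 2850 to 2873 CPM in knockdown cells, with 2706 CPM in the negative control. With TMM scaling none of the 18 was called, and with median centring their median log2 fold change turned from -0.14 to 0.10. Fibroblast markers had 9 higher and 0 lower of 17, with sums of 1055 to 1073 against 1242 to 1255 CPM and 1110 CPM in the negative control. Epicardial and mesothelial markers had 12 higher and 0 lower of 16, with sums of 625 to 653 against 809 to 811 CPM. All of these epicardial sums lay below the 1358 CPM of the negative control. With TMM scaling 2 fibroblast and 9 epicardial markers were higher, and with median centring 1 and 6 were. Smooth muscle and pericyte markers had 4 higher and 2 lower of 13 (665 to 694 against 729 to 746 CPM, and 630 CPM in the negative control), with none called under TMM scaling. Endothelial markers had 0 called of 17 (815 to 848 against 882 to 898 CPM, and 1009 CPM in the negative control). Immune markers had 0 called of the 7 tested (92.7 to 94.4 against 88.6 to 91.0 CPM, and 151 CPM in the negative control). No marker was at 0 CPM in any library. Of all secondary peaks 1.63% rose and 11.8% fell. At secondary peaks these lists had 10, 3, 1, 1, 3 and 0 members in the same order, and 1 of these peaks was itself called. It was at Ets1, an endothelial transcription factor, and fell from 23.1 and 18.4 CPM to 13.6 and 14.7 CPM with 41.5 CPM in the negative control. The pair test called this peak lower as well, and also 1 at Dcn, the fibroblast gene of decorin (-0.54, adjusted p = 0.040, limma), whose widest peak rose by 0.39 on the log2 scale while its secondary peak was not called. Fewer cells of a type and less of the mark per cell cannot be told apart in these bulk libraries, and the part of cell composition in the calls at secondary peaks was not tested.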

How the data were processed

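Chromatin was profiled by CUT&RUN in 5 libraries, 2 control H3K4, 2 Kdm5b knockdown H3K4 and 1 negative control. The submitters' processing notes name Trim Galore (read trimming) and the build GRCm39. How reads were aligned and counted, how peaks were called, and how a peak got its gene symbol is not given in the sources used here. Values are CPM per peak and library in 1 table deposited by the authors, whose positions are used unchanged. Within a column all values were whole multiples of 1 step (100% within a tolerance of 1e-06), which gives whole reads per peak. Their total ranged from 3784381 in the negative control to 31068085 in knockdown library 4, and a negative control value is the less precise. These totals include 2 lines emptied for this work. H3K4 column names carry the numbers 3 and 4 and sample titles other numbers, so columns stand for groups and not for titled samples.

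Values were analysed as log2(CPM + 1), which understates changes of low peaks, for the 58072 peaks that reached 1 CPM in 2 or more H3K4 libraries. Knockdown and control were compared with limma 3.58.1 (trend, 2-sided, R 4.3.3) and adjusted by Benjamini-Hochberg over all peaks or pairs tested. SE values are those of this fit and follow its trend over peaks of similar level, so they do not show the spread of 1 peak's own libraries. The pair test took the difference of log2(CPM + 1) between a peak and the widest peak of its gene. Density was CPM per kb with 0.1 added before logs. Other settings included edgeR 4.0.16 and DESeq2 1.42.0 on the recovered reads, and all were planned. The fits were tested on simulated data with equal numbers of rises and falls and no difference in scaling between the groups. That test thus does not bear on how the calls depend on scaling. Fixed totals tie the level of each peak to all others.

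Members, gene lists and settings were chosen with earlier results of these data known. Lists were matched with hyphens dropped, since the table has none. Named peaks were the 10 largest rises and falls past the threshold with non-overlapping groups, a mean CPM of 5 or more and a plain symbol, the extremes of ratio and density, the 5 largest called pairs each way, the 5 genes with most members, up to 4 peaks per list and a fixed set of cardiac genes; not all are named, and 1 gene among them is not reported here.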

Additional observations from a re-analysis of the deposited data

How the results depend on the processing

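Counts of secondary peaks called higher and lower (24 and 174) were within 1.5 times with pseudocounts of 0.5 and 5, no filter and edgeR. They were 38 higher with a filter of 5 CPM, 2 and 5 with TMM scaling, 108 lower with quantile normalization, 1 and 0 with median centring and with DESeq2, and 0 and 0 with limma without a trend. They ranged from 3 to 14 higher and 21 to 146 lower with 1 library left out. The labels do not say whether the numbers in the column names pair the libraries. The difference between libraries 4 and 3 correlated weakly between control and knockdown (r = 0.118 across peaks), which rests on 2 pairs and cannot decide it. With these numbers as a replicate block the counts were 50 and 300, and 80 and 228 for pairs of peaks. With widths from 3000 bp 82 were lower, and among members at least 2-fold above the negative control 11 were higher and 0 lower. Pairs called higher and lower (41 and 64) were 73 and 157 with the 5 CPM filter, 27 lower with quantile normalization and 0 and 0 without a trend. They ranged from 4 to 42 and 5 to 150 with 1 library left out. They were 38 lower with widths from 3000 bp, 19 and 1 among members 2-fold above the negative control, and 9 higher against the highest peak of the gene. The median log2 fold change of -0.13 became -0.020 with TMM, -0.069 with quantile normalization, 0.11 with median centring, 0.079 with DESeq2 and 0.071 among members 2-fold above the negative control, and ranged from -0.17 to -0.09 with 1 library left out. The median log2 density against the widest peak in the control libraries, -1.33, became -0.77 with widths from 3000 bp, -1.17 with 1 member per gene, -1.67 against the highest peak, -1.21 with 1 CPM per kb added, and 0.82 among members 2-fold above the negative control. The median log2 ratio to the negative control of -0.77 became -0.17 with widths from 3000 bp. The 7.48% at least 2-fold above it became 15.5% with widths from 3000 bp, 5.85% with 5 CPM added and 16.7% at 1.5-fold. The fall at Ppargc1a became 0.030 with median centring and 0.0068 with DESeq2. Of 966 values of named peaks and pairs under other settings, 587 kept direction and call, 377 kept direction only and 2 (Ppargc1a) reversed. The causes of these changes were not tested, beyond the fewer peaks or libraries that a filter, a width limit or a left-out library leaves. Where 1 library was left alone in a group it was assumed to vary like the other group.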
